A study of Mus musculus with 10 samples.

Results

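The genes described here are 10 T-box transcription factor genes of mesoderm and heart, T, Eomes, Tbx1, Tbx2, Tbx3, Tbx4, Tbx5, Tbx15, Tbx18 and Tbx20, out of 22350 protein-coding genes annotated in mm9 (GENCODE) on the 20 chromosomes with a peak. They were chosen by name, with earlier results of these data known, all 10 were found, and each was examined over its gene body plus 10 kb on either side. PcG binding was measured by ChIP-seq in ESCs of the J1 line, grown on feeder fibroblasts with serum and leukemia inhibitory factor and freed of the feeders before cross-linking, and in NSCs made in culture from the same line and grown with EGF and FGF. Ring1b, Cbx2, Ezh2 and H3K27me3 were profiled in ESCs, and Ring1b and H3K27me3 in NSCs, with 1 library per cell type and target and no further treatment. With no replicates, no difference between ESCs and NSCs has an error or a test, and each comparison below describes a pair of libraries.

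T-box factors bind DNA through the domain that gives the family its name, and they direct the formation of mesoderm, the heart and the limbs. In pluripotent cells, genes of this kind are textbook PcG targets. Ring1b is the ubiquitin ligase of PRC1 and Cbx2 is a PRC1 subunit that can read H3K27me3. Ezh2 is the methyltransferase of PRC2 that deposits H3K27me3. Neural stem cells belong to a lineage that does not make mesoderm. Eomes also acts in the neural lineage, in intermediate progenitors of the developing cortex.

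The deposited lists give where each peak starts and ends, with no height or score. Depth per library is unknown, so a missing peak means only that no 1 kb window passed the authors' threshold. Binding in fewer cells and weaker binding per cell cannot be told apart in these bulk samples. The lists differ in how much was called. ESCs had 2335 Ring1b, 2192 H3K27me3, 1173 Ezh2 and 1033 Cbx2 peaks, and NSCs had 1647 H3K27me3 and 1389 Ring1b peaks. Peaks of the smallest width, 1000 bp, made up 8.14% of the ESC Ring1b list and 29.0% of the NSC Ring1b list. The cell types were compared with marker genes as far as peaks allow. None of the 7 ESC markers (among them Pou5f1 and Nanog) had its start site in a peak of the 4 ESC lists. Of the 7 NSC markers found (Sox1 was not used here), 4 had their start site in an ESC Ring1b peak, namely Nes, Pax6, Olig1 and Olig2, and 0 in an NSC Ring1b peak. In NSCs, H3K27me3 peaks held the start sites of 2 ESC markers, Lin28a and Sox2, each in 1800 bp. Sox2 is on both marker lists, and its peak taken alone goes against the NSC label, since H3K27me3 is usually found at silent genes. ESCs also had 1200 bp under H3K27me3 in the Sox2 window, outside the start site. The paper reports Sox2 expression in its H3.3_SNAP NSCs, a different line. Peak lists alone cannot show whether Sox2 was silent in the NSCs used here.

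The sequences just upstream of 5 start sites are shown because these genes take the main courses described below. T and Tbx20 lost Ring1b and kept H3K27me3 at the start site, Eomes had both in NSCs, Tbx2 lost both, and Tbx18 kept Ring1b. Each is the 250 bases before the start site in mm9, written in the direction of transcription with CpGs in capitals. They lie at chr17:8627038-8627287 (T, forward strand), chr9:118387080-118387329 (Eomes, forward), chr11:85645803-85646052 (Tbx2, forward), chr9:87626096-87626345 (Tbx18, reverse) and chr9:24578747-24578996 (Tbx20, reverse).
T: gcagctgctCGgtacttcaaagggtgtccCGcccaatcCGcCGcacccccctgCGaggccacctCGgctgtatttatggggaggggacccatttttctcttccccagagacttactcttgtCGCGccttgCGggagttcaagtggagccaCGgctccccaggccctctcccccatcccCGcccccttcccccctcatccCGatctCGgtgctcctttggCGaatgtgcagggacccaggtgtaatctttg
Eomes: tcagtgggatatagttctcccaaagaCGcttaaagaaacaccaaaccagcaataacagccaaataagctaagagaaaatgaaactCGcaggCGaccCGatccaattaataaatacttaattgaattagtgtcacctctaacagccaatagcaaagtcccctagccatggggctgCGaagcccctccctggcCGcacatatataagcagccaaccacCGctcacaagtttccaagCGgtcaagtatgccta
Tbx2: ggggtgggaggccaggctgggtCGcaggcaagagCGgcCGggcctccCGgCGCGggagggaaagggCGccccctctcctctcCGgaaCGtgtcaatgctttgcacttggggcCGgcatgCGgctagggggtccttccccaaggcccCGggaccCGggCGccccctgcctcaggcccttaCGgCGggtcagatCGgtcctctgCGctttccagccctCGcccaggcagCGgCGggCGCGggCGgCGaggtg
Tbx18: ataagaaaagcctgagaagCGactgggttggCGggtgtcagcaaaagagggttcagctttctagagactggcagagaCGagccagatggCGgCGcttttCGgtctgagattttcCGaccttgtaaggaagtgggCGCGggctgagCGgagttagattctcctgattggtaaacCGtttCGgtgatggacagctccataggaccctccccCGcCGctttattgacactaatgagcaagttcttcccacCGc
Tbx20: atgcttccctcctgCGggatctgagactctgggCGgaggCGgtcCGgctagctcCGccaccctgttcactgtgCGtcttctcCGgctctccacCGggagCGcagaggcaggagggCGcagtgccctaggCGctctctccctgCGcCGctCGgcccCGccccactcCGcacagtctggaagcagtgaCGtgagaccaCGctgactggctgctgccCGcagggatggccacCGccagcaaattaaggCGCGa

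CpG-rich DNA is where PcG proteins are usually found. These 250 bases held 25 CpGs in Tbx2, 22 in Tbx20, 15 in Tbx18, 14 in T and 8 in Eomes. Over all 10 genes the median was 14.5 CpGs, compared with 18 over the 1571 genes whose start site lay in an ESC Ring1b peak and 8 over 22345 genes with a complete sequence. Tbx1 had the most, 32, and Tbx5 had 0. The Ring1b peak over the Tbx5 start site nevertheless held 288 CpGs in 10400 bp, 27.7 per kb, close to the 26.8 per kb of Tbx15 and Tbx20 and below the 48.9 per kb of Tbx1. Over whole Ring1b peaks, the ratio of observed to expected CpGs (1 where CpGs are as frequent as C and G content allows) ran from 0.411 at Tbx4 to 0.628 at Eomes, all below the median of 0.65 over the 1571 genes, whose peaks were mostly narrower. A binding site of the T-box factors themselves, TCACACCT on either strand, was in 0 of the 10 sequences. It was in 0.944% of all 22345 and in 1.27% of the 1571. With shares this low, 0 of 10 does not set these genes apart. Only this exact sequence was sought, so variants of it were not counted.

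In ESCs, Ring1b peaks held the start sites of 10 of the 10 genes, compared with 7.03% of all protein-coding genes. H3K27me3 peaks held 5 (T, Tbx1, Tbx2, Tbx4 and Tbx20), compared with 4.31%. Ezh2 peaks held 4 (T, Eomes, Tbx1 and Tbx2), compared with 2.56%, and Cbx2 peaks held 4 (Eomes, Tbx1, Tbx2 and Tbx18), compared with 1.15%. The background is lower still for all 4 ESC lists at once, 0.752%, a state that Tbx1 and Tbx2 had. Among the 1571 genes with Ring1b at the start site, however, 47% also had H3K27me3 there, 34.5% Ezh2 and 15.8% Cbx2. Read against these genes, the 5, 4 and 4 of 10 are near the share for H3K27me3 and Ezh2 and above it for Cbx2. The start sites of Tbx3, Tbx5 and Tbx15 lay in Ring1b peaks and in no other ESC list, as did 3.13% of all genes and 44.5% of the 1571. No coding transcript starts at this site of Tbx15, and its coding start lay in all 4 ESC lists.

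**Figure D1:**
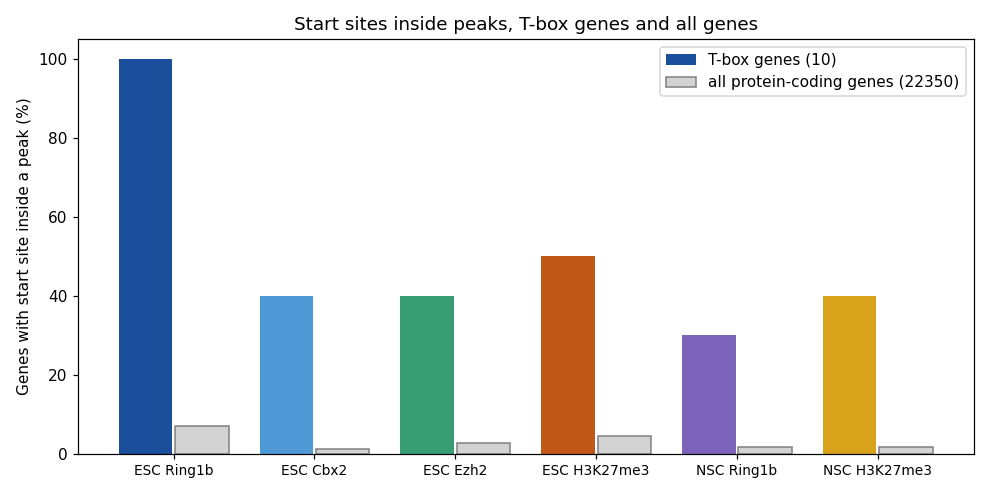
Share of genes with the start site inside a peak of each list (%), for the 10 T-box genes (coloured bars) and all 22350 protein-coding genes (grey bars). The T-box bars stand at 100, 40, 40, 50, 30 and 40 from left to right, and the grey bars run from 1.15 to 7.03.

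These counts rest on the exact position of peak edges. The Cbx2 peak at T ended 88 bp before the start site, the ESC H3K27me3 and Ezh2 peaks at Tbx18 began 95 bp after it, and 2 ESC H3K27me3 peaks flanked the start site of Eomes without covering it. When a peak within 1 kb was counted, the Cbx2 count went from 4 to 7 genes, with T, Tbx5 and Tbx15 added, and the share of all genes to 1.59%. The count for all 4 lists went from 2 to 5, with T, Eomes and Tbx18 added, and the share of all genes to 1.28%. Whole windows, which ran from 26308 bp at Tbx1 to 133879 bp at Tbx15, gave higher counts. Ring1b and H3K27me3 each had a peak at 10 genes (11.5% and 9.97% of all genes), and Cbx2 and Ezh2 each at 8 (3.09% and 5.28%). Cbx2 was missing from the windows of Tbx3 and Tbx20, and Ezh2 from those of Tbx3 and Tbx5.

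**Figure D2:**
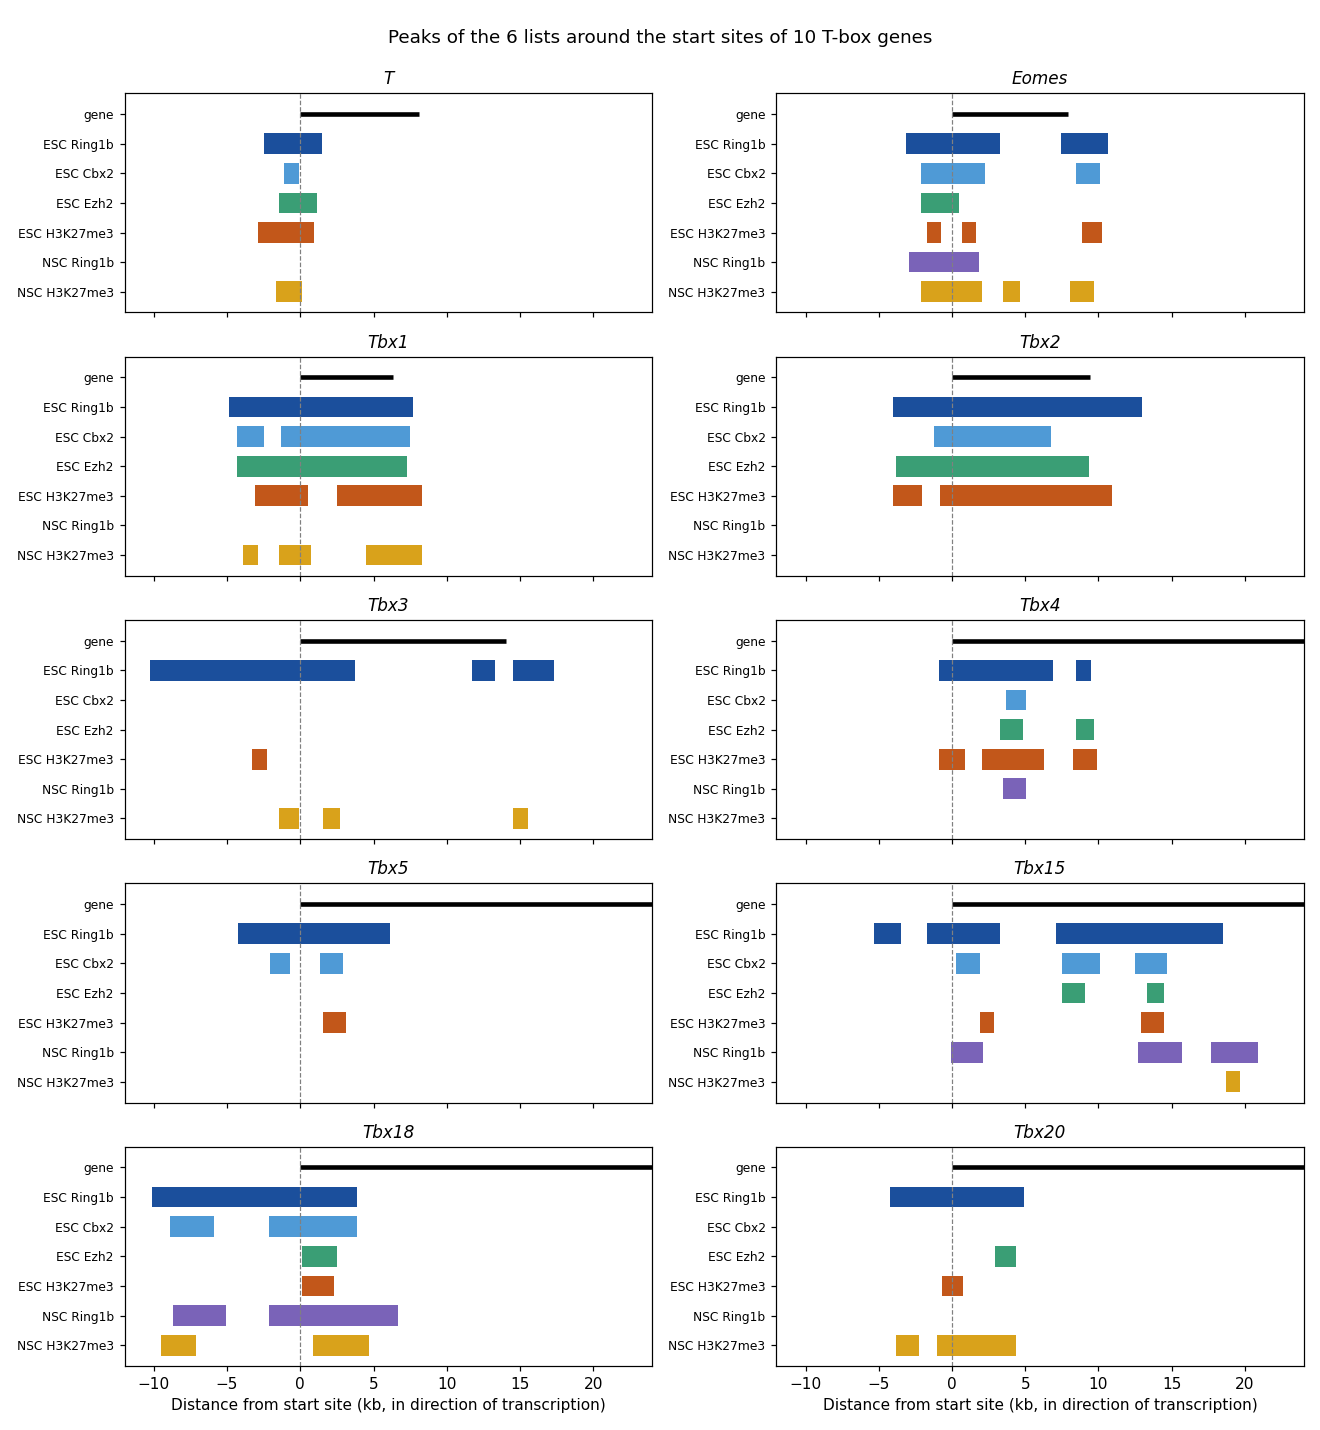
Peaks of the 6 lists around each T-box gene, by distance from the start site in kb along the direction of transcription, with the gene body as a black bar (cut at the right edge for Tbx4, Tbx5, Tbx15, Tbx18 and Tbx20). ESC Ring1b bars cross the dashed start line in all 10 panels, whereas the NSC Ring1b row is empty for T, Tbx1, Tbx2, Tbx3, Tbx5 and Tbx20.

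T (Brachyury) drives the formation of mesoderm in the primitive streak and of the notochord. Its gene record (chromosome 17, forward strand, 8627288 to 8635361) had the narrowest Ring1b peak of the 10 at its start site, 4000 bp, from 2.5 kb upstream to 1.5 kb downstream. H3K27me3 covered 3800 bp and Ezh2 2600 bp of the same place, and Cbx2 had a single peak of 1000 bp. In NSCs no Ring1b peak was called within 365713 bp of the start site. An H3K27me3 peak of 1800 bp remained there, all of it under the ESC H3K27me3 peak.

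Eomes acts beside T in the early streak and later in intermediate progenitors of the cortex. Its gene record (chromosome 9, forward strand, 118387330 to 118395250) was the only 1 of the 10 with both NSC lists at the start site, as had 8.4% of the genes with ESC Ring1b there. Ring1b covered 9600 bp of the window in ESCs, in a peak over the start site and a peak at the 3′ end of the gene, and 4800 bp in NSCs, at the start site alone. H3K27me3 went the other way, from 3400 bp in ESCs, in 3 peaks of 1000, 1000 and 1400 bp, to 7000 bp in NSCs, with a peak of 4200 bp that closed the gap over the start site.

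Tbx1 patterns the pharyngeal arches and the second heart field. Its gene record spans 18581806 to 18588113 of chromosome 16, reverse strand. In ESCs a Ring1b peak of 12600 bp, from 4.9 kb upstream to 7.7 kb downstream of the start site, covered all 8 exon blocks. Ezh2 covered 11600 bp in 1 peak, which had rank 9 by width among the 1173 Ezh2 peaks. Cbx2 covered 10600 bp and H3K27me3 9400 bp. In NSCs Ring1b had no peak in the window, and H3K27me3 kept 7000 bp in 3 peaks, one of them over the start site. Of the NSC H3K27me3 length, 85.7% lay under ESC H3K27me3 peaks. The Ring1b, Cbx2 and Ezh2 peaks also held the start of a non-coding transcript, 4930588K23Rik, 3972 bp from that of Tbx1.

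Tbx2 and Tbx4 lie side by side on the forward strand of chromosome 11, and Tbx3 and Tbx5 on that of chromosome 5, an arrangement that goes back to duplication of an ancestral pair. Tbx2 and Tbx3 are repressors that keep the atrioventricular canal from becoming chamber muscle, Tbx4 serves hindlimb and lung, and Tbx5 serves forelimb and heart. The start sites of Tbx2 and Tbx4 are 53.9 kb apart and those of Tbx3 and Tbx5 164.0 kb.

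Tbx2 (85646053 to 85655450) carried the widest Ring1b peak over a start site among the 10 genes, 17000 bp, with all 7 exon blocks. It also carried the widest Ezh2 peak of the 10 genes, 13200 bp, with rank 5 in the whole list, and an H3K27me3 peak of 11800 bp with rank 4 among 2192. Cbx2 covered 8000 bp. In NSCs neither list had a peak in the window, and the nearest H3K27me3 peak was 1303853 bp from the start site. The lincRNA 2610027K06Rik starts 328 bp away on the other strand, inside the same ESC peaks, so that the peaks cannot be assigned to Tbx2 alone.

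Tbx4 (85699924 to 85729599) had Ring1b over 8800 bp and H3K27me3 over 7600 bp in ESCs, both with a peak over the start site. Ezh2 (2800 bp in 2 peaks) and Cbx2 (1400 bp) lay only further inside the gene. The Cbx2 peak and an Ezh2 peak of 1600 bp were near a second coding start 3.6 kb downstream, and the other Ezh2 peak, 1200 bp, began 8.5 kb downstream. This second start lay in peaks of ESC Ring1b, Ezh2 and H3K27me3. It also lay in the only NSC peak of the window, a Ring1b peak of 1600 bp, although the start of the gene record did not. H3K27me3 had no NSC peak in the Tbx4 window either, and its nearest was 1357724 bp from the start site.

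Tbx3 (120120678 to 120134733), which besides its later roles is part of the transcription factor network of naive ESCs, looked unlike its paralogue Tbx2. A Ring1b peak of 14000 bp reached from 10.3 kb upstream to 3.7 kb downstream of its start site, with rank 61 among 2335 peaks. Cbx2 and Ezh2 had no peak within 132923 bp of it, and ESC H3K27me3 had a single peak of the smallest width, 1000 bp. Of the Ring1b length in the window, 5.52% lay under H3K27me3, compared with 81.2% at Tbx2. In NSCs Ring1b was gone from the window, and H3K27me3 covered 3600 bp in 3 peaks of 1400, 1200 and 1000 bp, none on the ESC H3K27me3 peak and all inside the former ESC Ring1b peaks. The nearest of them stopped 78 bp short of the start site. An antisense non-coding transcript, Gm2301, begins 696 bp inside Tbx3 and shares its Ring1b peak.

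Tbx5 (120284672 to 120335227) resembled Tbx3 in its start site, which lay in a Ring1b peak of 10400 bp and in no other list. The same pattern over the 6 lists was found at 591 genes. Cbx2 had a peak on either side of the start site, 3000 bp in all, H3K27me3 had 1600 bp in the gene and Ezh2 had none in the window. In NSCs both lists were empty here, as they were at Tbx2. The nearest NSC H3K27me3 peak was 148472 bp away.

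Tbx15, Tbx18 and Tbx20 are the remaining listed genes. Tbx15 acts in limb and skin mesenchyme, Tbx18 in somites, epicardium and the sinoatrial node, and Tbx20 in the heart chambers. Tbx15 (chromosome 3, forward strand, 99044304 to 99158182) had 3 Ring1b peaks in ESCs, 18200 bp in all, and 3 in NSCs, 8400 bp. No coding transcript starts at the end of its gene record. The annotated coding start lies 13.4 kb downstream, in the widest of these Ring1b peaks (11400 bp). It also lay in peaks of ESC Cbx2, Ezh2 and H3K27me3 and of NSC Ring1b, so that counted from its coding start Tbx15 had all 4 ESC lists. H3K27me3 was sparse at this gene, with 2600 bp in ESCs and 1000 bp in NSCs at another place.

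Tbx18 (chromosome 9, reverse strand, 87597635 to 87626095) kept the most Ring1b. A peak of 14000 bp in ESCs was replaced by a pair of 8800 bp and 3600 bp in NSCs, and the covered length in the window went from 13895 to 12400 bp. Of the ESC Ring1b length, 69.1% lay under NSC Ring1b. The larger NSC peak reached 6.7 kb into the gene, beyond the 3.9 kb reached in ESCs. The smaller of the pair lay upstream, where Cbx2 also had a second ESC peak, of 3000 bp. H3K27me3 covered 2200 bp in ESCs, within the gene, and 6200 bp in NSCs, within the gene and over the upstream site. Its start site, in ESC Ring1b and Cbx2 and in NSC Ring1b only, had a combination found at 5 genes in all. This combination rests on peak edges. The ESC Ezh2 and H3K27me3 peaks began 95 bp after the start site, and an NSC H3K27me3 peak began 895 bp after it.

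Tbx20 (chromosome 9, reverse strand, 24527648 to 24578746) had a Ring1b peak of 9200 bp in ESCs and no NSC Ring1b peak within 2784946 bp. H3K27me3 took the opposite course. A peak of 1400 bp over the start site in ESCs became a peak of 5400 bp in NSCs, and a second of 1600 bp lay upstream, 7000 bp in all and every base of it inside the former ESC Ring1b peak. Ezh2 had 1400 bp within the gene in ESCs, at the site into which the NSC mark reached. No Cbx2 peak lay within 1377255 bp.

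Ring1b peaks over the start sites were wide. They ran from 4000 bp at T to 17000 bp at Tbx2, with a median of 9800 bp, compared with 2600 bp over all 1571 genes with such a peak. At T, 28.1% of those genes had a peak as wide or wider, at Tbx15 20.9% and at Tbx2 4.2%. The Tbx15 value is for the peak of 5000 bp at the end of its gene record, and its coding start lay in a peak of 11400 bp. The peaks of Tbx3 and Tbx18 had the same width, which 5.79% of the genes reached. For H3K27me3 in ESCs the median over 5 start sites was 3600 bp, compared with 2200 bp over 964 genes, and for Ezh2 over 4 it was 7100 bp, compared with 2200 bp over 572. In NSCs the median H3K27me3 peak over 4 start sites, 3200 bp, was near the 2800 bp of 395 genes.

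**Figure D3:**
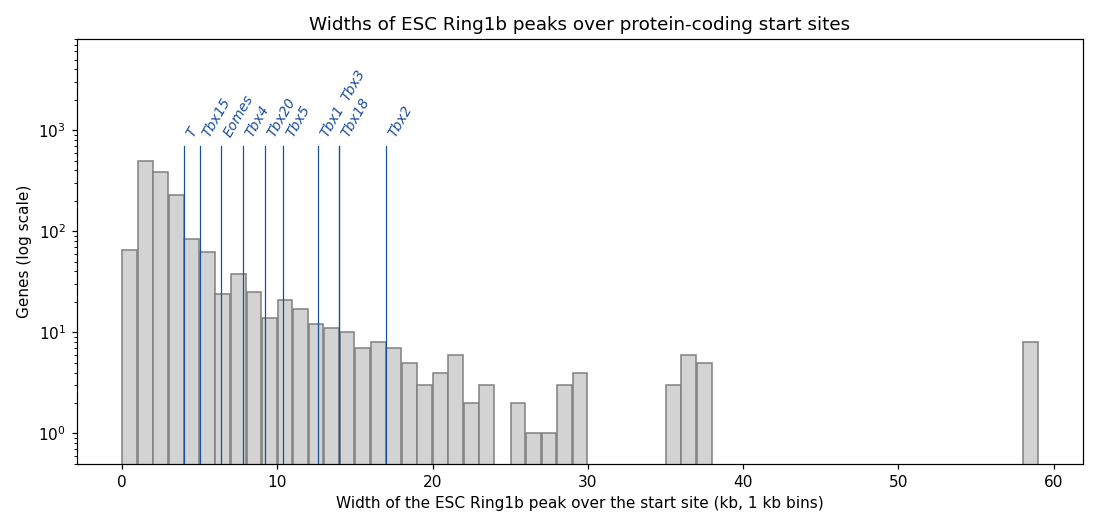
Number of protein-coding genes (log scale) by the width of the ESC Ring1b peak over their start site, in bins of 1 kb, with the 10 T-box genes as blue lines. The lines lie between 4000 bp (T) and 17000 bp (Tbx2), to the right of the 2600 bp median of all 1571 genes.

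Ring1b covered more than any other ESC list, at these genes and in the whole lists. Summed over the 10 windows, Ring1b covered 121.8 kb in ESCs, H3K27me3 46.8 kb, Cbx2 45.4 kb and Ezh2 39.4 kb. Over the genome the same lists covered 7.9, 4.91, 2.59 and 2.85 Mb. Of the H3K27me3 length, 96.6% lay under Ring1b, whereas 37.1% of the Ring1b length lay under H3K27me3. The latter share ranged from 5.52% at Tbx3 to 85% at T. The genes fell into 4 with 69.8% or more of their Ring1b under H3K27me3 (T, Tbx1, Tbx2 and Tbx4), Eomes at 35.4%, and 5 with 15.8% or less (Tbx3, Tbx5, Tbx15, Tbx18 and Tbx20). By the study's methods Ring1b chromatin was fixed with EGS before formaldehyde. The part of this step in the width of Ring1b peaks was not tested.

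From ESCs to NSCs, Ring1b peaks covered less at 10 of the 10 genes. The same held for 93.9% of the 1571 genes with ESC Ring1b at the start site, so the fall is shared with the background. Covered length fell to 0 at 6 genes, T, Tbx1, Tbx2, Tbx3, Tbx5 and Tbx20, and 72.9% of the 1571 had no NSC Ring1b peak in the window. In NSCs, 3 of the 10 start sites lay under Ring1b (Eomes, Tbx15 and Tbx18), compared with 1.74% of all genes and 16.7% of the 1571. They lay in the windows of 4 (Eomes, Tbx4, Tbx15 and Tbx18), compared with 4.64% of all genes. The total went from 121.8 to 27.2 kb, and the whole Ring1b list also fell, from 7.9 to 3.6 Mb.

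H3K27me3 moved in the same direction as Ring1b at 6 of the 10 genes. It covered less in NSCs at 6 genes (T, Tbx1, Tbx2, Tbx4, Tbx5 and Tbx15), compared with 56.6% of the 1571, and more at 4 (Eomes, Tbx3, Tbx18 and Tbx20), compared with 17.1%. At all 4 of the latter Ring1b covered less at the same time, a combination found at 13% of the 1571 genes. All H3K27me3 peaks at Tbx3 were 1400 bp wide or narrower, so its rise is absent among peaks at least 2 kb wide. The total over the 10 windows went from 46.8 to 33.6 kb, and the whole H3K27me3 list also fell, from 4.91 to 3.92 Mb. H3K27me3 peaks of NSCs held the start sites of 4 genes (T, Eomes, Tbx1 and Tbx20), compared with 1.77% of all genes and 19.8% of those with ESC Ring1b at the start site. Of the 5 start sites in ESC H3K27me3 peaks, 3 stayed in one (T, Tbx1 and Tbx20), compared with 25.4% of 964 genes. At 3 genes (T, Tbx1 and Tbx20) the start site had NSC H3K27me3 without NSC Ring1b, compared with 11.4% of the 1571, and at 2 (Tbx15 and Tbx18) it had the reverse, compared with 8.34%. A peak edge decides the state of Tbx18, where NSC H3K27me3 began 895 bp after the start site. Neither list held the start sites of Tbx2, Tbx3, Tbx4 and Tbx5, the linked genes, compared with 71.9% of the 1571. However, an NSC H3K27me3 peak stopped 78 bp short of that of Tbx3, and a second coding start of Tbx4 lay in an NSC Ring1b peak.

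Over whole windows, NSC H3K27me3 had a peak at 7 genes, all but Tbx2, Tbx4 and Tbx5, compared with 4.7% of all genes. Both NSC lists had one at 3 (Eomes, Tbx15 and Tbx18), compared with 1.85%. Neither had one at 2 (Tbx2 and Tbx5), compared with 63.1% of the 2572 genes with an ESC Ring1b peak in the window.

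**Figure D4:**
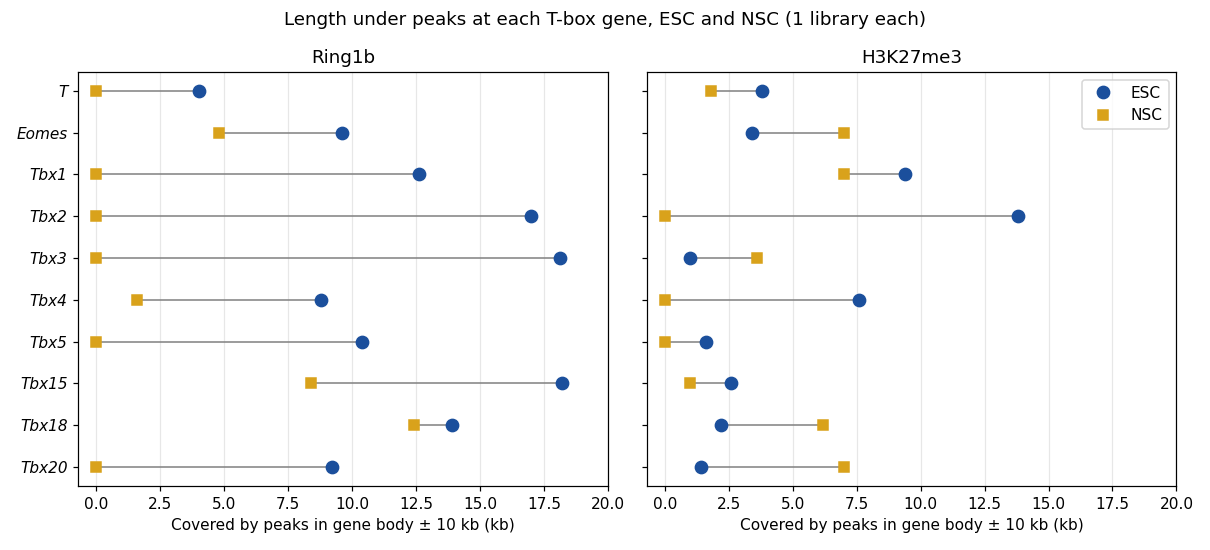
Length under peaks in the gene body plus 10 kb on either side (kb), for Ring1b (left) and H3K27me3 (right), in ESCs (blue circles) and NSCs (yellow squares), 1 library each. Every NSC square lies left of its ESC circle for Ring1b, while for H3K27me3 the squares of Eomes, Tbx3, Tbx18 and Tbx20 lie to the right.

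NSC peaks at these genes lay mostly on ESC PcG territory. All 7 NSC Ring1b peaks in the windows overlapped an ESC Ring1b peak, compared with 35.9% of the whole NSC Ring1b list. Of the 15 NSC H3K27me3 peaks, 13 overlapped an ESC Ring1b peak, compared with 42.1% of the list, but only 8 overlapped an ESC H3K27me3 peak, compared with 35.5%. Each of the 10 windows held an ESC Ring1b peak, so overlap with that list was likely beforehand. The list shares also count peaks away from such genes, and no share was computed for the windows of other ESC Ring1b genes. By length, 89.3% of NSC H3K27me3 lay under ESC Ring1b and 39.9% under ESC H3K27me3. The peaks without any overlap with ESC Ring1b were a peak of 1200 bp within Eomes and the single peak of 1000 bp at Tbx15. Parts of other H3K27me3 peaks also lay outside it, at Tbx1 (91.4% under ESC Ring1b) and Tbx18 (87.1%). Of the NSC Ring1b length, 80.9% lay under ESC Ring1b, 71.4% at Tbx15, 77.4% at Tbx18 and all of it at Eomes and Tbx4.

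The remaining T-box genes had fewer peaks. ESC Ring1b held the start sites of 2 of 7, Tbx21 and Mga, compared with 7.03% of all genes. Of Tbr1, Tbx6, Tbx10, Tbx19, Tbx21, Tbx22 and Mga, 4 had no peak of any list in the window (Tbx6, Tbx10, Tbx19 and Tbx22), although Tbx6 is itself a gene of paraxial mesoderm. Tbx21, a regulator of T helper cells, had narrow peaks of ESC Ring1b (2000 bp), ESC Ezh2 and NSC H3K27me3 (1600 bp each) over its start site. Tbr1, the close relative of Eomes in cortical neurons, had Ring1b over 10800 bp of its window in ESCs, but not at the start site, beside 4400 bp each of Ezh2 and H3K27me3, and no NSC peak. Mga, a broadly expressed partner of Max that is found in a PRC1 complex, had Ring1b alone, 2000 bp in ESCs and 2200 bp in NSCs.

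Of 23 genes that work with these factors in mesoderm and heart, 15 had their start site in an ESC Ring1b peak, 10 in Ezh2, 8 in H3K27me3 and 8 in Cbx2. In NSCs, 5 lay in Ring1b and 8 in H3K27me3 peaks. Of all genes, 7.03%, 2.56%, 4.31% and 1.15% had these ESC states, in that order. For the NSC lists the shares were 1.74% and 1.77%. The largest ESC Ring1b shares of the window were those of Hand2, 77.8%, and Foxf1a, 73.2%, both above the 57.8% of Tbx2. In NSCs, Hand2 led for H3K27me3 with 77% of its window, followed by Nkx2-5 with 53.8%, compared with 26.6% at Tbx1, the highest of the T-box genes. The median ESC Ring1b share was 11.5% over the 23 genes, 23.2% over the 10 T-box genes and 4.87% over the 1571 genes. These medians are not like for like. All of the 10 and of the 1571 had Ring1b at the start site, but only 15 of the 23 did. Genes without a Ring1b peak lower the median of the 23, so it does not rank them below the T-box genes. No list had a peak at 6 of the 23, Msgn1, Tbx6, Mef2c, Fgf10, Nppa and Gja5. The share of all genes without a peak of any list was not computed, here or for the remaining T-box genes.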

How the data were processed

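Ring1b, Cbx2, Ezh2 and H3K27me3 ChIP-seq libraries of J1 ESCs and Ring1b and H3K27me3 libraries of NSCs, cross-linked in 1% formaldehyde for 10 min and sheared to 250 bp on average, were taken from the samples' labels. 4 input libraries were not analysed here. The deposited values are peak positions (start and end, mm9). To make them, the authors mapped paired-end tags (with Bowtie by the paper, while the submitters' processing notes name BWA), counted tags in 1 kb windows moved by 200 bp, compared ChIP with input by a negative binomial model whose size parameter was set by inspection, and joined nearby enriched windows. Peak widths and splits therefore depend on that setting.

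Positions were read in Python 3.11.15. Gene positions came from GENCODE M1 and bases from NCBIM37, the same build as mm9, and every peak lay within its chromosome. A start site is the 5′ end of the gene record. Peaks counted from 1 bp of overlap with the window, and covered length was cut at the window's ends. The background is the share of all protein-coding genes in the same state. Nothing was tested, since there are no replicates. The steps were tested on simulated data, where 200 of 200 planted genes gave the right start-site state, covered length and peak count. The members and gene lists were chosen with earlier results of these data known. All 10 members and the other T-box genes are described, and of the 23 partner genes the 3 with the largest ESC Ring1b and the 3 with the largest NSC H3K27me3 shares are named, except for a gene that is not reported here, beside those without a peak. Tbx6 is on both comparison lists. Alternatives were a peak within 1 kb of the start site, any coding transcript start, the gene body alone or plus 25 kb, most of the peak in the window, peaks at least 2 kb wide, and peaks within 3 kb merged.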

Additional observations from a re-analysis of the deposited data

How the results depend on the processing

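Of 84 alternative values for 21 results, 65 stayed within 1.5 times the reported value. The 65 include the median covered share of NSC Ring1b, which was 0 in each setting. Counting a peak within 1 kb of the start site gave 7 genes for ESC Cbx2 (4 reported, 1.59% of all genes), 5 for H3K27me3 in both cell types (3 reported, 1.83%) and 5 for all 4 ESC lists (2 reported, 1.28%). Keeping only peaks at least 2 kb wide left 3 start sites in ESC H3K27me3 (5 reported, 2.55% of all genes) and 1, Tbx1, in H3K27me3 of both cell types (0.702%). It left 5 windows with a peak for ESC Cbx2, Ezh2 and H3K27me3 each (1.53%, 2.71% and 4.67% of all genes) and 4 for NSC H3K27me3 (2.26%), and median covered shares of 1.79%, 2.48%, 2.27% and 0% in that order (4.52%, 5.29%, 8.36% and 8.13% reported). A window of 25 kb on either side, which holds more uncovered sequence, gave medians of 13.8% for ESC Ring1b (23.2% reported), 3.29% for ESC Ezh2, 4.34% for ESC H3K27me3 and 4.36% for NSC H3K27me3. The gene body alone gave 4.95% for NSC H3K27me3, and merging peaks within 3 kb gave 6.83% for ESC Cbx2. The count of 10 start sites in ESC Ring1b peaks was 10 under each of the 4 alternatives run for it. These could hardly have lowered it. A peak within 1 kb and merging can only add genes, and the narrowest of the 10 peaks was 4000 bp. Any coding start could have removed only Tbx15, whose coding start also lay in a Ring1b peak. No paired analysis was possible because each cell type and target has 1 library. Depth is unknown, so weak binding cannot be told from none.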

Other observations

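Between the end of Tbx2 and the start of Tbx4, 44.5 kb on chromosome 11, ESC Ring1b covered 10.1% and H3K27me3 5.56%, all of it in peaks that reach into either gene, and Cbx2, Ezh2 and both NSC lists had no peak. Between Tbx3 and Tbx5, 149.9 kb on chromosome 5, ESC Ring1b had 3 peaks (7.25% covered), H3K27me3 had 2 (2.93%), Cbx2 had 2 (2.13%) and Ezh2 had 1 of 1000 bp. The NSC lists each had 1 peak of 1000 bp there.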
